A study of Homo sapiens with 4 samples.

Results

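The 10 genes described here write or erase N6-methyladenosine (m6A) on messenger RNA. They were taken by symbol from the deposited count table, METTL3, METTL14, WTAP, VIRMA, RBM15, ZC3H13, CBLL1 and METTL16 as writers and FTO and ALKBH5 as erasers. All 10 symbols were found among the 46427 genes listed, and all 10 were among the 17781 genes with enough counts to be tested.

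m6A is a methyl group placed on adenosines of messenger RNA, mostly within a short sequence whose core is often GGACT. METTL3 transfers the methyl group from S-adenosylmethionine, METTL14 holds the RNA beside it, and WTAP, VIRMA, RBM15, ZC3H13 and CBLL1 form the part of the complex that places it in the nucleus and on its targets. METTL16 is a separate methyltransferase, FTO and ALKBH5 are dioxygenases that remove the mark, and readers such as YTHDF1 bind methylated messages in the cytoplasm.

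The libraries came from messenger RNA of the gastric cancer cell line SNU638 with a control vector or a YTHDF1 vector. There were 2 of each, called biological replicates in the labels. All 4 cultures were first held for 24 h without serum and then received IFN-γ at 10 ng/ml, so no untreated cells were compared. The labels give 8 h of IFN-γ, whereas the figure legends of the study give 24 h. The libraries held 57398137 to 60864942 counts each, and the 10 genes together took from 0.0627% to 0.0723% of them.

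YTHDF1 itself was at 82.2 and 80.3 counts-per-million (CPM, scaled by the TMM method) in replicates 1 and 2 of the control, against 16494 and 2628 CPM in replicates 1 and 2 of YTHDF1. Both YTHDF1 libraries were far above both control libraries, and the first was well above the second. The replicate number marked a wider difference over all genes than the vector did. The correlation of log2 CPM over 17781 genes was 0.985 and 0.983 between the vectors within replicate numbers 1 and 2, and 0.885 and 0.888 between the numbers within control and YTHDF1. The labels do not say what the number stands for. The 8 epithelial and gastric line markers summed to between 3922 and 6728 CPM, with TFF1 at 0 counts in all 4 libraries. The 9 markers of blood, endothelial and stromal cells summed to between 12.3 and 16.9 CPM, with COL1A2 at 0 counts in all 4. COL1A1 and CD68 carried most of that sum. COL1A1 was at 10.7 and 10.9 CPM in the replicate 1 libraries of control and YTHDF1, and at 5.69 and 5.81 CPM in their replicate 2 libraries. CD68 was between 5.16 and 6.08 CPM. The epithelial markers moved with the number in both directions. KRT8, at 2216 and 2081 CPM in the replicate 1 libraries of control and YTHDF1 and 3594 and 3818 CPM in their replicate 2 libraries, carried most of the sum, and KRT18, KRT19 and MUC1 were also higher in replicate 2. CLDN4, at 55.0 and 56.6 CPM in replicate 1 and 0.934 and 0.994 CPM in replicate 2, CDH1 (52.8 and 51.4 against 34.7 and 35.1 CPM) and EPCAM (265 and 284 against 243 and 242 CPM) were lower there. The part of these markers in the results below was not tested.

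All 10 messages were present at a moderate level. Read counts ran from 1214 for RBM15 in control replicate 2 to 6967 for VIRMA in control replicate 1, and mean CPM over the 4 libraries from 23.5 for RBM15 to 104 for VIRMA. The highest library exceeded the lowest by 1.07-fold for ALKBH5 and by 1.43-fold for CBLL1, the extremes of the 10. The plot of CPM by library shows each value.

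**Figure D1:**
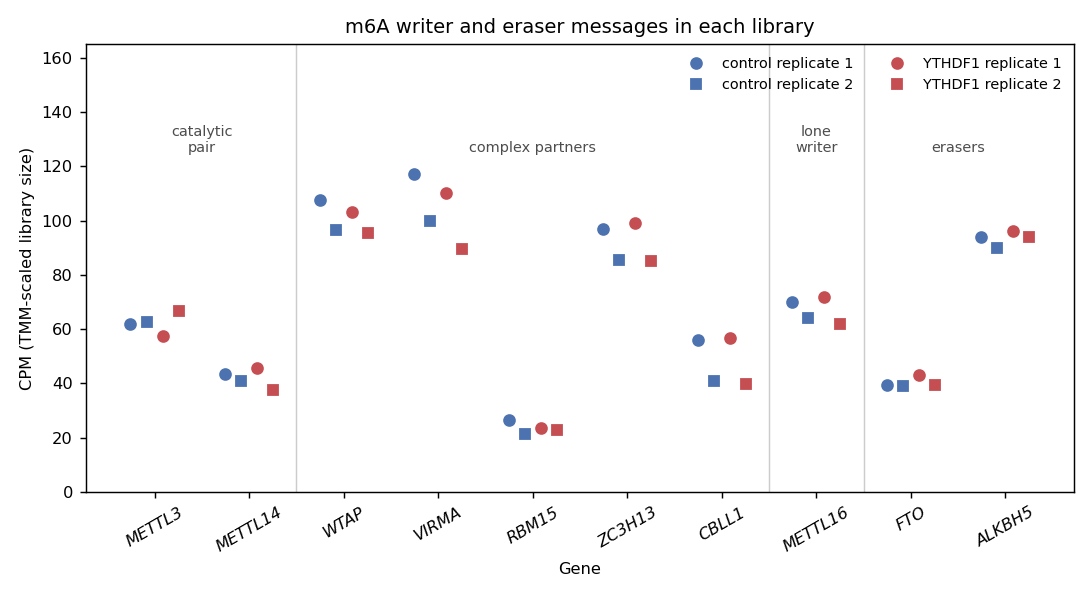
CPM of the 10 writer and eraser genes (vertical axis) in each of the 4 libraries, with control in blue, YTHDF1 in red, replicate 1 as circles and replicate 2 as squares. Most genes separate by replicate number, as in CBLL1 at 55.8 and 56.7 CPM in replicate 1 and 40.9 and 39.8 CPM in replicate 2, and not by vector.

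To compare genes with each other, counts were divided by the length of the gene's exons and expressed as transcripts-per-million (TPM). On this scale ALKBH5, at a mean of 85.0 TPM, and METTL3, at 82.2 TPM, were the most abundant of the 10, and the ranges of their 4 libraries overlapped. WTAP followed at 54.6 TPM, with no overlap with METTL3 above or VIRMA below. VIRMA at 39.8, METTL16 at 31.3, CBLL1 at 29.2 and ZC3H13 at 25.2 TPM came next, and each overlapped its neighbour in this order. METTL14, at 16.8 TPM, was the next lower and did not overlap ZC3H13, but its range met that of RBM15 at 13.4 TPM. FTO was the lowest at 7.35 TPM, apart from RBM15. Its exons add up to 14598 bases over the isoforms used, those of the basic GENCODE annotation, so its value depends on the length assigned to it. Of the catalytic pair, METTL3 was thus from 4.15 to 5.89 times as abundant per length as METTL14 in the 4 libraries. This ratio also depends on the assigned lengths, 2015 bases for METTL3 and 6669 for METTL14. In read counts the ratio was from 1.25 to 1.78.

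Promoter sequences, from the RefSeq table of GRCh38.p14, are shown for METTL3, METTL14 and CBLL1, because METTL3 and METTL14 encode the catalytic pair and CBLL1 had the widest spread over the 4 libraries. Each runs from 250 bases before to 50 bases after the annotated start, 5′ to 3′ on the strand of the gene. Capitals mark CCGGAA, the core of the sites that ETS family factors bind, or its reverse complement. The METTL3 promoter lies at chr14:21511291-21511590 on the minus strand, that of METTL14 at chr4:118685142-118685441 on the plus strand and that of CBLL1 at chr7:107743892-107744191 on the plus strand.
METTL3: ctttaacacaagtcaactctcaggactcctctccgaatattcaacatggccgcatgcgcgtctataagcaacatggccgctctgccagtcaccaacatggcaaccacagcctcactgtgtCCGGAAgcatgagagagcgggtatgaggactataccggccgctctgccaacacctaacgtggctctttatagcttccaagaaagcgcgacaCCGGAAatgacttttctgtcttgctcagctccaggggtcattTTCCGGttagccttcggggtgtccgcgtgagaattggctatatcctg
METTL14: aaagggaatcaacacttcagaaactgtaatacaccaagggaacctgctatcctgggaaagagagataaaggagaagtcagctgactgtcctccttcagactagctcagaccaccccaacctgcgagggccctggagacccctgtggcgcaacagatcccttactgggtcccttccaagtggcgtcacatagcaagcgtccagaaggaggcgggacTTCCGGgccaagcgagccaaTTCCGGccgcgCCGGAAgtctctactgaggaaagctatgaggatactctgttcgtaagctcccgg
CBLL1: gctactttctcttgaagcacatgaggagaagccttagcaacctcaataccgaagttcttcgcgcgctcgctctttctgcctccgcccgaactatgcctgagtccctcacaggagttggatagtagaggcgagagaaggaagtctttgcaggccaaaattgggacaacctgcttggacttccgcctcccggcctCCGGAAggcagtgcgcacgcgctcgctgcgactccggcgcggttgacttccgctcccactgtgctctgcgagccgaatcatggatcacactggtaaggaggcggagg

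The METTL3 and METTL14 promoters each held 3 matches and the CBLL1 promoter 1 match. The table held a promoter for 9 of the 10 genes, all but VIRMA, and 5 of the 9 had at least 1 match on either strand (METTL3, METTL14, ZC3H13, CBLL1 and METTL16). Among the 12367 promoters of tested genes the share was 27.8%, and among all 27305 promoters 17.6%. This motif was chosen after the sequences had been read, so its count is a description only. The interferon-stimulated response element, searched as a pair of GAAA blocks parted by any 2 bases, was present in METTL16 alone of the 9, against 3.09% of the promoters of tested genes and 3.65% of all promoters. GCATGCGC, part of the palindrome that NRF1 binds, was present in METTL3 and ALKBH5, 2 of the 9, against 5.11% of the promoters of tested genes and 3.27% of all. The 3 motifs were searched on both strands. A match is not a bound site.

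The first question was whether cells that overexpress the reader YTHDF1 differ from control in the genes that write and erase the mark it reads. None of the 10 messages passed the test. By edgeR's quasi-likelihood test, 0 of 10 had an unadjusted p under 0.05, against 0.135% of the 17781 genes tested, and 0 of 10 passed when a log2 fold change of 0.5 or more in either direction was also asked for, against 0.101%. At a Benjamini-Hochberg adjusted p under 0.05 the count was 0 of 10 and 0% of all genes, YTHDF1 included (log2 fold change 6.88, SE 1.20, adjusted p = 1.00). The log2 fold changes of the members, YTHDF1 minus control, had a median of -0.0052, beside 0.0046 over all genes tested, and 3 were above 0 and 7 below. A count of 0 here does not show that the members did not differ. In simulated counts, this test recovered 0 of 105 genes with a log2 change of 0.5 and 0 of 95 with a change of 1. Recovery was counted at an adjusted p under 0.05 only. The simulated counts kept the observed difference between the numbers, and the spread within a number was assumed. The fit had no term for the replicate number, so that difference entered its error and the confidence intervals between vectors given below. With the number as a block, VIRMA alone of the 10 had an unadjusted p under 0.05 by the same test, beside 3.79% of all genes. No member passed at an adjusted p under 0.05 with the block, while YTHDF1 did (adjusted p = 0.0022). The p-values measure the spread between these libraries, which may be technical in part. In bulk RNA, fewer cells that express a gene and less RNA per cell cannot be told apart.

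Of the catalytic pair, METTL3 was at 62.1 CPM in the first control library and 62.6 CPM in the second, and at 57.4 and 66.7 CPM in the YTHDF1 libraries of the same numbers. The YTHDF1 libraries were the lowest and the highest of the 4, with both control libraries between them. The log2 fold change was -0.0060 (95% confidence interval -0.32 to 0.31). METTL14 was at 43.3 and 40.9 CPM in control and at 45.8 and 37.5 CPM in YTHDF1. Here too the YTHDF1 libraries enclosed the control libraries, but with the first highest and the second lowest. The log2 fold change of METTL14 was -0.015 (95% confidence interval -0.42 to 0.39).

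Within the replicate numbers, the catalytic partners moved in opposite directions. Differences within a number set 1 library against 1, so their 95% intervals, exact binomial on the counts of both libraries, cover counting error only. In replicate 1, METTL3 was lower in YTHDF1 by -0.11 on the log2 scale (-0.18 to -0.046) and METTL14 higher by 0.079 (0.00066 to 0.16). In replicate 2, METTL3 was higher by 0.093 (0.028 to 0.16) and METTL14 lower by -0.12 (-0.21 to -0.038). Each of the 4 intervals left out 0, the second only just, and the directions of both genes turned between the numbers. Neither trait was particular to METTL3 and METTL14. Such intervals left out 0 for 6 members in replicate 1 and for 4 in replicate 2. Only 50.4% of all tested genes kept the same direction in both numbers. The share of all tested genes whose interval left out 0 within a single number is not given here. The ratio of METTL3 to METTL14 counts was 1.43 (replicate 1) and 1.53 (replicate 2) in control, against 1.25 (replicate 1) and 1.78 (replicate 2) in YTHDF1. It was thus both lowest and highest in the YTHDF1 libraries, with no common direction. METTL3 lies at chr14:21498138-21511340 on the minus strand, where TOX4 overlaps it on the other strand, and METTL14 at chr4:118685392-118715430 on the plus strand. The strand setting of the counting is not given in the sources used here, so reads of METTL3 and TOX4 may have been mixed.

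**Figure D2:**
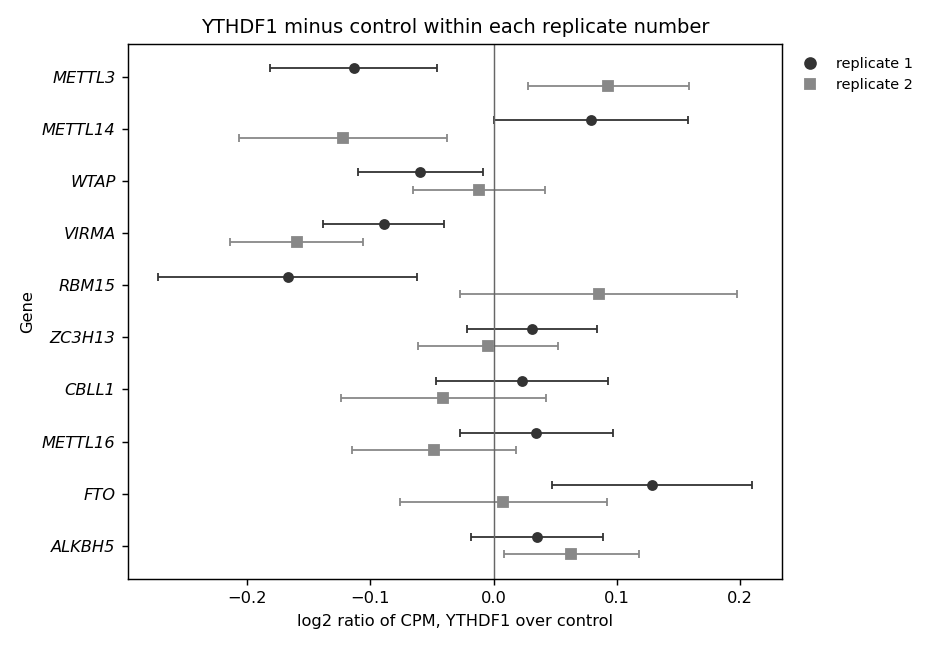
Log2 ratio of CPM, YTHDF1 over control (horizontal axis), for each gene within replicate 1 (dark circles) and replicate 2 (grey squares), where bars are 95% exact binomial intervals for counting error. All points lie between -0.17 and 0.13, and METTL3 and METTL14 lie on opposite sides of 0 in the 2 numbers.

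Among the 5 partners that position the complex, VIRMA, the large scaffold of this part, was lower with YTHDF1 in both numbers. It was at 117 and 99.95 CPM in control and at 110 and 89.5 CPM in YTHDF1, each in the order of the replicate numbers. The replicate 1 library of YTHDF1 was nevertheless above the replicate 2 library of control, so the vectors overlapped. The difference was -0.089 in replicate 1 (counting interval -0.14 to -0.040) and -0.16 in replicate 2 (-0.21 to -0.11). It was the only 1 of the 10 whose intervals left out 0 on the same side in both numbers, as 5.4% of all tested genes did and 7.54% of those with a mean of at least 10 CPM. Over the 4 libraries its log2 fold change was -0.12 (95% confidence interval -0.58 to 0.33), the furthest from 0 of the 10.

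WTAP, the adaptor that ties the catalytic pair to the other partners, was at 107 and 96.3 CPM in control and at 103 and 95.5 CPM in YTHDF1. It too was lower with YTHDF1 in both numbers, by -0.059 (-0.11 to -0.0086) and -0.012 (-0.066 to 0.042), and the second interval held 0. RBM15, which binds RNA and brings the complex to its targets, was at 26.4 and 21.4 CPM in control and at 23.5 and 22.7 CPM in YTHDF1. Its YTHDF1 libraries lay between the control libraries, and the difference was -0.17 in replicate 1 (-0.27 to -0.062) and 0.085 in replicate 2 (-0.027 to 0.20).

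ZC3H13, which keeps the complex in the nucleus, was at 96.9 and 85.4 CPM in control and at 99.0 and 85.1 CPM in YTHDF1. CBLL1, also called HAKAI, a RING-type protein of the same subcomplex, was at 55.8 and 40.9 CPM in control and at 56.7 and 39.8 CPM in YTHDF1. METTL16, which methylates U6 small nuclear RNA and hairpins of the MAT2A message, was at 70.0 and 64.0 CPM in control and at 71.7 and 61.9 CPM in YTHDF1. In these 3 genes each YTHDF1 library was close to the control library of its number, and all 6 counting intervals held 0. CBLL1 had the widest 95% confidence interval of the 10 in the fit over 4 libraries, -0.76 to 0.76, around a log2 fold change of -0.0036.

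Both erasers had a higher CPM in the YTHDF1 library of each number, by little. FTO was at 39.5 and 39.1 CPM in control and at 43.1 and 39.3 CPM in YTHDF1. Its first YTHDF1 library was the highest, and the other 3 lay close together. The difference was 0.13 in replicate 1 (counting interval 0.047 to 0.21) and 0.0080 in replicate 2 (-0.076 to 0.092). ALKBH5 was at 93.9 and 90.0 CPM in control and at 96.2 and 94.1 CPM in YTHDF1, where even the lower YTHDF1 library was above the higher control library. The difference was 0.035 (-0.019 to 0.089) and 0.063 (0.0080 to 0.12). ALKBH5 was the only 1 of 10 genes whose vectors did not overlap, a pattern that 11.5% of all tested genes had, and its log2 fold change of 0.049 had a 95% confidence interval of -0.17 to 0.27.

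Across the 10 genes, 2 were higher within both numbers (FTO and ALKBH5), as were 25.9% of all tested genes, and 2 were lower within both (WTAP and VIRMA), as were 24.5%. In the other 6 the direction turned. None of the 20 differences within a number exceeded 0.17 in size, the size of the largest, that of RBM15 in replicate 1. This limit was taken from the members, so all 10 meet it by definition. Of all tested genes, 54.9% stayed within it in both numbers. Among the 9992 genes with a mean of at least 10 CPM, which are closer to the members in depth, the share was 83.9%. With 1 library left out, the sign of the log2 fold change turned for 8 of the 10 genes in at least 1 of 4 fits. FTO (0.0023 to 0.13) and ALKBH5 (0.018 to 0.080) kept theirs in all 4. Each left-out library leaves the numbers unequal between the vectors, so the difference between numbers enters these fits. FTO and ALKBH5 had the smallest such differences (-0.076 and -0.046), so their kept sign does not show a difference between the vectors. The share of all tested genes whose sign turned was not computed, so the count of 8 is a description only.

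The balance of erasers and writers was described by the summed CPM of FTO and ALKBH5 over that of the 8 writers. It was 0.230 in replicate 1 and 0.252 in replicate 2 of the control, and 0.246 in replicate 1 and 0.267 in replicate 2 of YTHDF1. The ratio was higher in the YTHDF1 library within each number and higher in replicate 2 with each vector, and the vectors overlapped. The mean log2 difference was 0.088, with p = 0.667 in a two-sided exact permutation test of 2 libraries against 2. Its smallest possible p is 0.333, so this test could not decide whether the vectors differ.

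**Figure D3:**
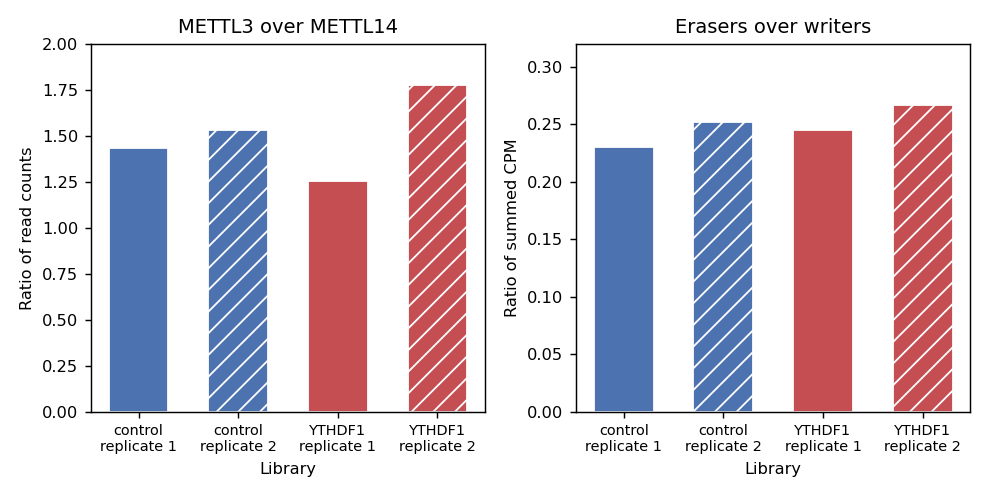
Ratio of METTL3 to METTL14 read counts (left) and of summed eraser to summed writer CPM (right) in each library, as single values with no error bar, with control in blue, YTHDF1 in red and replicate 2 hatched. The METTL3 to METTL14 ratio is lowest and highest in the YTHDF1 libraries, at 1.25 and 1.78, and the eraser to writer ratio lies between 0.230 and 0.267.

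The second comparison set the 2 replicate 2 libraries against the 2 replicate 1 libraries, because the number marked the wider difference over all genes and its spread enters the test between the vectors. Most writers were lower in replicate 2, and METTL3, RBM15 and the erasers did not pass. By the same edgeR test, 6 of 10 genes had an adjusted p under 0.05, all of them lower in replicate 2 (METTL14, WTAP, VIRMA, ZC3H13, CBLL1 and METTL16). Over all tested genes 52.6% passed in either direction and 29.1% were lower and passed. The count of 6 is near the first share and above the second, and whether it exceeds the second was not tested. None of the 10 reached a log2 fold change of 0.5 in size with it, as 26.2% of all genes did. The median log2 fold change of the members was -0.17, beside -0.012 over all tested genes, and the median size was 0.17, beside 0.31 over all and 0.21 over genes with a mean of at least 10 CPM. In all, 9 of 10 members were lower in replicate 2, against 51.1% of all genes, and in 9 of 10 the numbers did not overlap in CPM, against 77.1%.

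CBLL1 had the largest difference of the 10. With its libraries at 55.8 and 56.7 CPM in replicate 1 and 40.9 and 39.8 CPM in replicate 2, the log2 fold change was -0.48 (SE 0.049, adjusted p = 5.68e-05). The 2 libraries of a number were nearly level and the numbers were well apart, by -0.45 in control and -0.51 in YTHDF1. Even so, 35.5% of all tested genes differed by at least as much between the numbers. The ratio of CBLL1 to WTAP counts was 0.520 and 0.550 in the replicate 1 libraries of control and YTHDF1, and 0.425 and 0.417 in their replicate 2 libraries.

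VIRMA followed with a log2 fold change of -0.26 (SE 0.059, adjusted p = 0.00516), then ZC3H13 with -0.20 (SE 0.041, adjusted p = 0.00311). Both vectors showed it, with VIRMA at -0.23 in control and -0.30 in YTHDF1 and ZC3H13 at -0.18 and -0.22. METTL14 was lower by -0.19 (SE 0.061, adjusted p = 0.0303), METTL16 by -0.17 (SE 0.045, adjusted p = 0.0119) and WTAP by -0.13 (SE 0.042, adjusted p = 0.0252). For METTL14 the difference was -0.085 in control and -0.29 in YTHDF1, and whether these differ was not tested with 1 library of each. RBM15, at -0.18 (SE 0.075, adjusted p = 0.0774), did not pass.

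METTL3 stood on the other side, with a log2 fold change of 0.11 (SE 0.056, adjusted p = 0.119), which did not pass. Its difference was 0.012 in control (counting interval -0.055 to 0.079) and 0.22 in YTHDF1 (0.15 to 0.28). The erasers had the smallest differences, with FTO at -0.076 (SE 0.059, adjusted p = 0.314) and ALKBH5 at -0.046 (SE 0.043, adjusted p = 0.405), neither of which passed. Their 95% confidence intervals, -0.21 to 0.059 and -0.14 to 0.053, leave out a change as large as that of CBLL1. Sizes at least as large as that of ALKBH5 were seen in 91.1% of all tested genes.

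**Figure D4:**
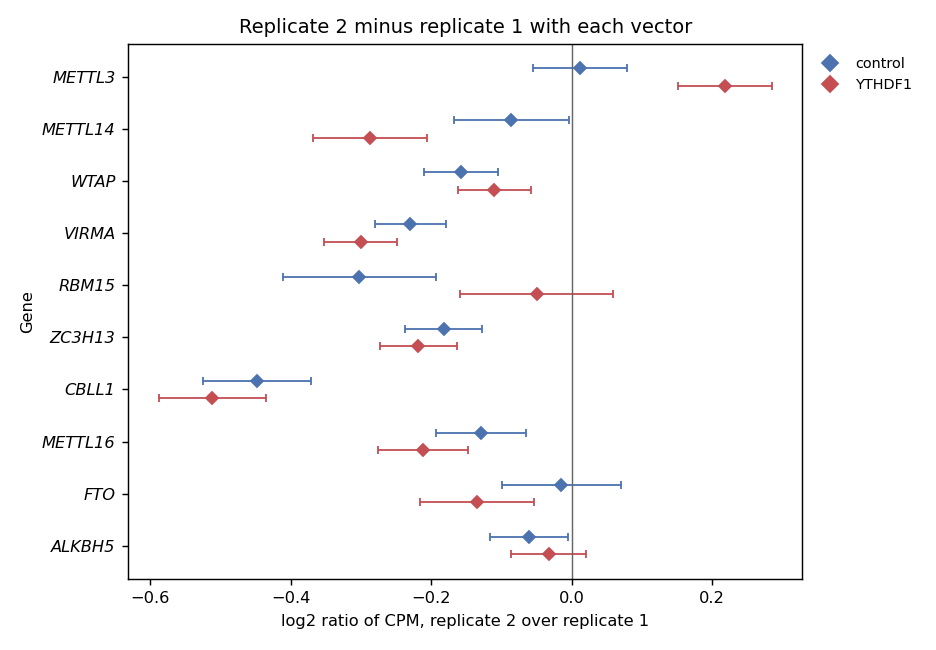
Log2 ratio of CPM, replicate 2 over replicate 1 (horizontal axis), for each gene within control (blue) and YTHDF1 (red), where bars are 95% exact binomial intervals for counting error. All genes but METTL3 lie below 0 with both vectors, and CBLL1 lies furthest out at -0.45 and -0.51.

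With 1 library left out, fewer genes passed among the members and over all genes. Without YTHDF1 replicate 2, 2 of the 10 members passed (ZC3H13 and CBLL1) and 36.6% of all tested genes, and without control replicate 2, 4 members and 37.3%. Without control or YTHDF1 replicate 1, 6 members passed each time, with 47.6% and 46.8% of all genes. METTL14 lost its call without either YTHDF1 library, METTL16 without either replicate 2 library, VIRMA without YTHDF1 replicate 2, and WTAP without any library except YTHDF1 replicate 1. The log2 fold changes behind the lost calls were -0.12 or -0.14 for METTL14, -0.14 or -0.19 for METTL16, -0.18 for VIRMA and between -0.10 and -0.13 for WTAP. RBM15 passed without YTHDF1 replicate 1 and METTL3 passed without control replicate 1. In these fits a lone library was assumed to vary like the other group, and all 10 genes kept their direction in the 4 fits.

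Of the genes that overlap members on the other strand, SOD2 and TOX4 passed between the numbers, and both had the opposite sign to their member. SOD2, which overlaps WTAP at chr6:159726693-159756319, was higher in replicate 2 by 0.76 (SE 0.032, adjusted p = 2.35e-07) while WTAP was lower. TOX4 was lower by -0.28 (SE 0.043, adjusted p = 0.000671) while METTL3 was at 0.11 without passing, and RPGRIP1L, beside FTO at chr16:53703963-54121941, was at -0.024 (SE 0.069, adjusted p = 0.792). The other members lie on the plus strand at chr1:110339377-110346677 (RBM15), chr7:107744142-107761667 (CBLL1) and chr17:18183828-18209954 (ALKBH5), on the minus strand at chr13:45954465-46052746 (ZC3H13) and chr17:2415715-2511888 (METTL16), and on chromosome 8 (VIRMA), with coordinates of GRCh38.p14.

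The part of base composition in the difference between the numbers was not tested. When 13890 coding genes were split into 3 equal bins by the GC content of their longest transcript, the median log2 fold change, replicate 2 minus replicate 1, was -0.033, -0.015 and -0.059 from the lowest to the highest bin. Of the members, 5, 4 and 1 fell in these bins. Their own transcripts carried the m6A core GGACT at between 0.425 matches per 1000 bases in FTO and 1.99 in METTL3, beside a median of 0.939 over the coding genes tested.

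Other genes of the pathway were taken from 3 lists, of other RNA methyltransferases and their partners, of the other AlkB family dioxygenases, and of enzymes that supply S-adenosylmethionine or remove its product. All 23 were tested. Between the vectors 0 of 23 passed at an unadjusted or adjusted p under 0.05, with 11 higher and 12 lower in YTHDF1 and a median log2 fold change of -0.019. Between the numbers 4 passed as higher and 5 as lower in replicate 2 at an adjusted p under 0.05, with 10 higher and 13 lower in all and a median of -0.042, beside the 52.6% of all genes that passed.

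ALKBH3, a dioxygenase that repairs alkylated nucleic acids, was the 1 gene of the 23 that passed and also differed by 0.5 or more on the log2 scale. It was at 14.1 and 12.5 CPM in control and YTHDF1 replicate 1, and at 8.08 and 7.70 CPM in control and YTHDF1 replicate 2. Both replicate 2 libraries were below both replicate 1 libraries, with a log2 fold change of -0.76 (SE 0.100, adjusted p = 0.000271). MAT2A, which makes S-adenosylmethionine and whose message METTL16 binds, was at 255 and 269 CPM in control and at 286 and 257 CPM in YTHDF1. It did not pass in either comparison, at 0.050 between the vectors and -0.042 between the numbers, whereas METTL16 was lower in replicate 2. Its longest transcript held TACAGAGAA, the letters METTL16 recognises, 5 times, and 3.79% of coding genes held them at least once.

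The tested genes most like each of 4 members were those whose log2 CPM, centred over the 4 libraries, lay at the smallest distance, among genes with a mean of at least 10 CPM. For METTL3 they were MRPL55, ERCC4 and DTNBP1, at distances of 0.014, 0.020 and 0.021, and for METTL14 FAM8A1, LYAR and INPP5B, at 0.0081, 0.0090 and 0.013. For FTO they were SECISBP2L, SEC11A and CKAP2L, at 0.0074, 0.010 and 0.013, and for ALKBH5 VCPIP1, POLR3G and FAM83G, at 0.0076, 0.0088 and 0.013. With 4 libraries such likeness is common, since 59, 47, 144 and 215 genes lay within 0.05 of METTL3, METTL14, FTO and ALKBH5.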

How the data were processed

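The authors deposited counts, the whole number of reads on each gene in each library, without normalization. The submitters' processing notes name Trimmomatic, HISAT2 and GRCh38, while the counting tool, its strand setting and tool versions are not given in the sources used here. The library kit selects poly(A) RNA and keeps strand.

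Genes were kept by filterByExpr, libraries scaled by TMM and groups compared by the quasi-likelihood test in edgeR 4.0.16 (R 4.3.3, limma 3.58.1), with Benjamini-Hochberg adjustment over 17781 genes. The threshold of p under 0.05 with a log2 fold change of 0.5 or more in either direction follows the study. SE is the absolute log2 fold change divided by the root of F. Confidence intervals are 95% intervals of the fit, and counting intervals are exact binomial intervals computed with scipy 1.17.1. The reads carry no molecular identifiers and may repeat a molecule, so these cover counting error only. TPM used exon lengths of GENCODE. Sequences came from the RefSeq promoter table and GENCODE transcripts, and figures were drawn with matplotlib 3.10.9.

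The members, lists and tests were chosen with earlier results of these data known. The text names all 10 members, YTHDF1, up to 5 genes per comparison of the pathway lists past the threshold, and the 3 genes nearest to each of 4 members. MAT2A, the markers named and overlapping neighbours are named beside a member. Alternatives were DESeq2 1.42.0 size factors and its Wald test, a minimum of 10 counts in each library, no minimum at all, library sizes without YTHDF1, a block for the replicate number, and each library left out in turn. Simulated counts kept the observed difference between the numbers, while the spread within a number was assumed. In them recovery was counted at an adjusted p under 0.05. The comparison of vectors recovered 0 of 105 and 0 of 95 genes with log2 changes of 0.5 and 1. With the block it recovered 100 of 105 and 95 of 95, among 17890 genes with 13 false calls. Recovery with the block rests on the assumed spread, so it does not show what the block would recover in these libraries.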

Additional observations from a re-analysis of the deposited data

How the results depend on the processing

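Between the vectors, the count of all genes called at an unadjusted p was 18, and 82 without a filter on low counts. It was from 47 to 60 with 1 library left out. The count at an adjusted p was 0, 3 with DESeq2's Wald test and 0 with each library left out. Members between the numbers with an adjusted p under 0.05 were 6, and from 2 to 6 with 1 library left out, the lowest without YTHDF1 replicate 2. With 1 library left out, the log2 fold change between the vectors ran from -0.13 to 0.10 for METTL3, -0.16 to 0.11 for METTL14, -0.11 to 0.044 for WTAP, -0.28 to 0.014 for VIRMA, -0.19 to 0.11 for RBM15, -0.097 to 0.11 for ZC3H13, -0.28 to 0.24 for CBLL1 and -0.11 to 0.091 for METTL16. Each left-out library leaves the numbers unequal between the vectors. The log2 eraser to writer difference ran from 0.022 to 0.15. Without a filter on low counts, which tests 26355 genes, METTL14 (log2 fold change -0.18) and WTAP (-0.13) lost their calls between the numbers, while the share of all genes called went from 52.6% to 30.8%. The labels give both vectors replicate numbers 1 and 2 but no meaning for them. Libraries of the same number deviated together, with a correlation of 0.875 over genes, which for 2 pairs is a single value. With the replicate number as a block, 192 genes were called at an unadjusted p and 8 at an adjusted p. In that fit 1 member, VIRMA, had an unadjusted p under 0.05 (edgeR's quasi-likelihood test, log2 fold change -0.12, adjusted p = 0.999), as had 3.79% of all genes, and YTHDF1 had an adjusted p of 0.0022. No member's call at an adjusted p changed under the block in either comparison.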
